A study of Mus musculus with 10 samples.

Results

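Immediate early genes are transcribed within minutes of a stimulus, from transcription factors that are already present in the resting cell. The 10 described here, Fos, Fosb, Junb, Egr1, Atf3, Dusp1, Ier2, Nr4a1, Ccn1 and Ccn2, were chosen by symbol, and all 10 were among the 18994 genes of the deposited table. They were measured by mRNA sequencing in the cheek skin of C57BL/6 mice, each library being 1 numbered mouse. All mice were 6 to 8 weeks old, the labels give no genetic change or other agent for either group, and every cheek had been shaved 3 days ahead. In 5 mice the right cheek was injected into the dermis with 1 µg of matrix metalloproteinase 9 (MMP9, a secreted protease that cleaves denatured collagen and collagen IV) in 5 µL. In the other 5 mice the same volume of vehicle was injected, and every cheek was taken after 4 hours. There was no group without an injection, so shaving, handling and the needle were common to both groups. What the vehicle contained, and whether the mice were male or female, the labels do not say.

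Growth factors, cytokines, stretch and wounding reach these genes through the ERK and p38 kinases, through serum response factor (SRF) with its ternary complex partners, and through CREB. Their mRNAs are mostly short-lived, so that levels rise and fall quickly. Ccn1 and Ccn2 are also targets of the mechanically regulated coactivators YAP and TAZ, which bind DNA through TEAD factors. In skin, the group is known for its response to wounding and to tissue handling.

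Library totals were 17121541 to 19443099 estimated counts, and a single member had between 54 and 6242 counts in a library. Levels are given as CPM, a count scaled to library size with TMM factors, which correct for differences in library composition. Keratinocyte markers summed to 12445 to 20752 CPM, and skeletal muscle markers to 17434 to 34210 CPM, so the tissue held muscle as well as epidermis. None of the markers listed in the table was at 0 in every library. MMP9 replicate 4 stood apart: ribosomal protein genes took 13.2% of its counts, against 6.74% to 7.61% in the other 9 libraries. Its genes with the longest transcripts, the top quintile by estimated count per TPM, had a median deviation of -0.39 from the vehicle mean on the log2 scale, against -0.03 to 0.10 elsewhere. For the shortest quintile the value was 0.56, against -0.10 to 0.04. The members' fold changes, spread and pairs and the related lists are therefore also given without it. Hair follicle markers (keratins of the hair shaft and inner root sheath, with Hoxc13 and Msx2) were low in vehicle replicate 2 and MMP9 replicate 1. Their median deviations there were -7.09 and -6.79, against -0.74 to 3.01 in the other 8 libraries. All 11 tested hair follicle markers had a log2 fold change below 0, with a median of -1.19. All 10 fibroblast markers had one above 0, with a median of 0.15. Over all tested genes 46.3% were below 0. Each other marker list had genes on both sides, skeletal muscle 6 above and 6 below. Without MMP9 replicate 4 fibroblast markers had 8 above and 2 below, and skeletal muscle markers 0 above and 12 below. All 11 hair follicle markers stayed below 0. None of these markers was called.

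Promoters are shown for 5 members, which were picked by name and not by a measure of promoter content. RefSeq promoter sequences (build GRCm38.p6) were found for 7 of the 10 members. Egr1, Ier2 and Ccn2 had no match. Each sequence is the 250 bases before the annotated start, 5′ to 3′ on the gene's strand. Fos lies on the + strand (chr12:85473640-85473889). Atf3 (chr1:191183334-191183583), Ccn1 (chr3:145649986-145650235), Dusp1 (chr17:26508473-26508722) and Junb (chr8:84978749-84978998) lie on the - strand. Capitals mark matches to TGACGT (the core of the cyclic AMP response element, which CREB and ATF proteins bind), CATTCC (the TEAD core) and TATAAA.
Fos: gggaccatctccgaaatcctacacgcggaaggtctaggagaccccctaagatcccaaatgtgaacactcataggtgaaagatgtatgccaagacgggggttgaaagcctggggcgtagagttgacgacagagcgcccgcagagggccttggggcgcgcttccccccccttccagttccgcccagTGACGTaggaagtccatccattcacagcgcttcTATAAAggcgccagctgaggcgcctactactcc
Atf3: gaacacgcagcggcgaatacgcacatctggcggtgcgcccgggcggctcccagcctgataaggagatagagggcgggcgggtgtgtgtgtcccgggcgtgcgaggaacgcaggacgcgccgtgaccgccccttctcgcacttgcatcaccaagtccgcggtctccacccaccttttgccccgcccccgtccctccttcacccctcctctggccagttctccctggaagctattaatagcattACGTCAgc
Ccn1: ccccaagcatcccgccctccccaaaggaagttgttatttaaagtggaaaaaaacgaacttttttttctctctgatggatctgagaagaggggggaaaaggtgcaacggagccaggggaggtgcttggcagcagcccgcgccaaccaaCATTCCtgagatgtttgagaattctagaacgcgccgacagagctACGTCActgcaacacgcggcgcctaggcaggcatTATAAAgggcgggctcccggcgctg
Dusp1: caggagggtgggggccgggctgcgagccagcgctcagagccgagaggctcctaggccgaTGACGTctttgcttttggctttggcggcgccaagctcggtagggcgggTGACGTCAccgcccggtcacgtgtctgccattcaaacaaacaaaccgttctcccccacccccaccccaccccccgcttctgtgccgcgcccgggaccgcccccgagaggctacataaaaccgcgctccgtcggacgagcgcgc
Junb: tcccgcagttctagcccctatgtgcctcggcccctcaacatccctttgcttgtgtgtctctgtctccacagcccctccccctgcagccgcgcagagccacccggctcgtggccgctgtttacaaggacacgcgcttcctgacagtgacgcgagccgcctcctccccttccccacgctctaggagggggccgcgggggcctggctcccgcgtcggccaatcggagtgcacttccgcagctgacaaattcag
TGACGT was searched on both strands and was found in 4 of the 7 members, Fos, Atf3, Ccn1 and Dusp1, against 6.47% of 32851 RefSeq promoters of the same length. The match began 66 bases before the start in Fos, 59 in Ccn1 and 8 in Atf3. Dusp1 held the full palindrome TGACGTCA, 143 bases before its start, where the core is counted on each strand, and a separate core at 191 bases. The palindrome occurs in 1.55% of all promoters. CATTCC, searched on both strands, was found in Ccn1 and Nr4a1, against 12.6% of all promoters. TATAAA, searched on the gene's strand, was found in Fos and Ccn1, against 7.59%. Neither TGANTCA, the AP-1 element (6.75% of all promoters), nor the CArG box bound by SRF (1.47%) was found in these windows of the 7 members. Sites farther upstream, sites that differ from the searched letters, and the promoters of Egr1, Ier2 and Ccn2 were outside this search. Junb and Fosb held none of the searched motifs. These matches are descriptions of letters and were not tested against the values.

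Did the immediate early genes differ between cheeks given MMP9 and cheeks given vehicle at 4 hours? None of the 10 members passed, 0 of 10, where 0% of the 15250 tested genes did (edgeR quasi-likelihood test, Benjamini-Hochberg adjusted p under 0.05). In 8 of 10 members the log2 fold change was below 0, and their median was -0.19, against 0.01 over all tested genes, of which 46.3% were below 0. That share was 52.4% without MMP9 replicate 4. The members' median was -0.08 without MMP9 replicate 4, where 8 of 10 were again below 0, -0.08 without vehicle replicate 1 and -0.34 without vehicle replicate 2. Without both libraries low in hair follicle markers, a setting chosen after seeing the data, it was -0.41 and 9 of 10 were below 0. Again none passed. The part of hair and fibroblast content in the members' levels was not tested. Ccn2 and Dusp1 were the members with the smallest p, both lower on average in MMP9, and for no member did the 5 mice of one group lie wholly above those of the other. Groups without overlap were seen for 0.564% of all tested genes. In tissue RNA, fewer cells of a type and less RNA per cell cannot be told apart.

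**Figure D1:**
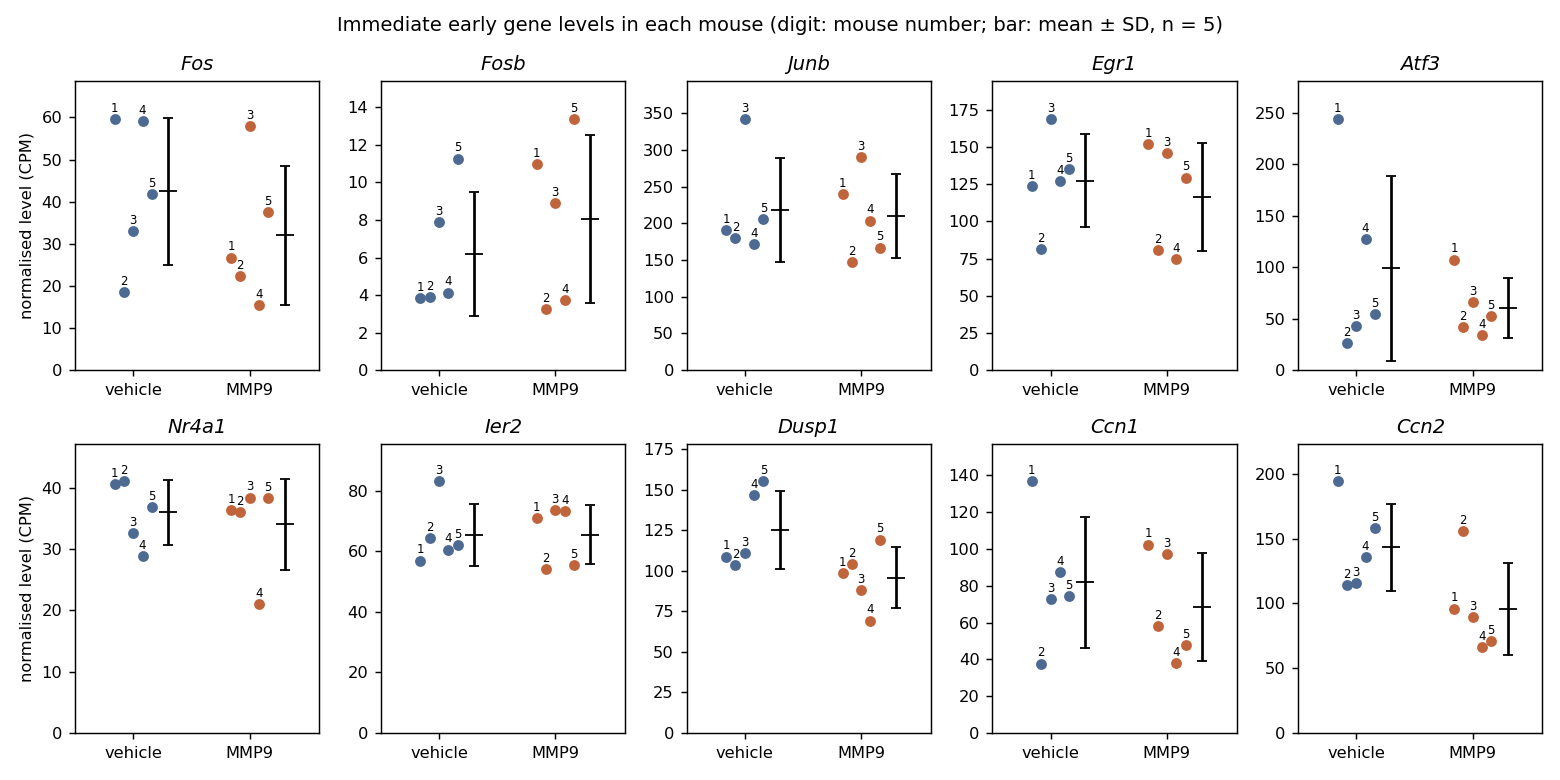
Level of each member in CPM (vertical axis, linear from 0) in each vehicle mouse (blue) and each MMP9 mouse (orange), with the mouse number beside each point and bars for the mean ± SD (n = 5). The groups overlap for all 10 genes, and the widest range is that of Atf3, from 26.6 to 244 CPM.

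Fos encodes the partner with which Jun proteins form the AP-1 transcription factor. Its level was 59.7, 18.6, 33.0, 59.1 and 41.8 CPM in vehicle replicates 1 to 5, and 26.7, 22.4, 58.0, 15.5 and 37.5 CPM in MMP9 replicates 1 to 5. Vehicle replicates 1 and 4 and MMP9 replicate 3 were the highest, vehicle replicate 2 and MMP9 replicate 4 the lowest, and the groups overlapped over nearly their whole range. The means were 42.4 ± 17.5 and 32.0 ± 16.6 CPM (SD, n = 5). The log2 fold change, MMP9 over vehicle, was -0.40, with a standard error (SE) of 0.38 (edgeR adjusted p = 0.981). It was -0.24 without MMP9 replicate 4, the lowest of the 10 libraries.

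Fosb, a second Fos family member, was the least abundant of the 10. It stood at 3.86, 3.88, 7.90, 4.13 and 11.3 CPM in vehicle and at 11.0, 3.24, 8.89, 3.74 and 13.4 CPM in MMP9. In both groups the mice lay either at 4.13 CPM or below or at 7.90 CPM or above, with 3 low mice in vehicle and 2 in MMP9. Its log2 fold change of 0.37 was the highest among the members (SE 0.44, edgeR adjusted p = 0.981).

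Junb encodes a Jun family subunit of AP-1 that restrains proliferation and inflammation in epidermis. Its values were 190.3, 180.2, 342, 172 and 206 CPM in vehicle and 239.8, 147, 290.0, 204 and 167 CPM in MMP9. Vehicle replicate 3 was the highest, well above the other 4 vehicle mice. The log2 fold change was -0.06 (SE 0.23), and it became 0.16 without that mouse.

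Atf3 encodes a stress-induced factor of the ATF/CREB family, and it varied most between mice. It stood at 244, 26.6, 43.2, 127 and 54.6 CPM in vehicle and at 107, 42.0, 66.0, 34.2 and 52.5 CPM in MMP9. The lowest and the highest values of the 10 mice, a 9.19-fold range, were both in the vehicle group, and every MMP9 value lay between them. The means were 99.2 ± 89.8 and 60.4 ± 28.9 CPM (SD, n = 5). The log2 fold change was -0.71 (SE 0.55, edgeR adjusted p = 0.981), and its 95% interval ran from -1.93 to 0.50. Without vehicle replicate 1 it was -0.06, and without MMP9 replicate 1 it was -1.03. Without vehicle replicate 2 and MMP9 replicate 1 together it was -1.27.

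Egr1 is a zinc finger factor that ERK signalling induces. Its values were 124, 81.5, 169, 127 and 135 CPM in vehicle and 152, 80.9, 146, 74.6 and 129 CPM in MMP9. Vehicle replicate 2 and MMP9 replicates 2 and 4 were low, and the other 7 mice lay at 124 CPM or above. The log2 fold change was -0.13 (SE 0.24), and -0.01 without MMP9 replicate 4. It was -0.25 without vehicle replicate 2 and -0.24 without MMP9 replicate 1.

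Nr4a1 encodes an orphan nuclear receptor, and Ier2 a small nuclear protein. Nr4a1 stood at 40.5, 41.0, 32.6, 28.8 and 36.9 CPM in vehicle and at 36.3, 36.0, 38.4, 21.0 and 38.3 CPM in MMP9. Its lowest value was that of MMP9 replicate 4, and the other 4 MMP9 mice lay within 36.0 to 38.4 CPM. The log2 fold change of -0.08 (SE 0.17) became 0.05 without that library. Ier2 stood at 57.0, 64.3, 83.1, 60.6 and 62.1 CPM in vehicle and at 71.1, 54.2, 73.7, 73.4 and 55.5 CPM in MMP9. With means of 65.4 ± 10.2 and 65.6 ± 9.87 CPM (SD, n = 5) it had the narrowest 95% interval of the log2 fold change among the members, from -0.29 to 0.29. Its log2 fold change of 0.0034 changed sign under several settings.

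Dusp1 encodes a phosphatase that switches off p38, JNK and ERK, and it is induced by glucocorticoids as well as by stress. It stood at 109, 103, 111, 147 and 155 CPM in vehicle and at 98.6, 104, 87.8, 69.3 and 119 CPM in MMP9. Of the MMP9 mice, 3 lay below all vehicle mice, and the other 2 lay within the vehicle range. The means were 125 ± 24.0 and 95.8 ± 18.6 CPM (SD, n = 5), a log2 fold change of -0.38 (SE 0.16). Its unadjusted p was 0.0402 and its edgeR adjusted p 0.981. Without MMP9 replicate 4 the log2 fold change was -0.29, with an interval from -0.63 to 0.05.

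Ccn1 and Ccn2 encode secreted matricellular proteins that bind integrins, and Ccn2 promotes matrix production by fibroblasts. Ccn1 stood at 137, 37.7, 72.7, 87.6 and 74.2 CPM in vehicle and at 102, 57.9, 97.1, 37.9 and 47.7 CPM in MMP9. The groups had nearly the same lowest value, and the highest was vehicle replicate 1. Its log2 fold change was -0.25 (SE 0.35), 0.01 without vehicle replicate 1 and -0.10 without MMP9 replicate 4. It was -0.43 without vehicle replicate 2 and -0.44 without MMP9 replicate 1. Ccn2 stood at 194, 114, 115, 136 and 158 CPM in vehicle and at 96.1, 156, 89.2, 66.5 and 71.1 CPM in MMP9. MMP9 replicate 2 lay within the vehicle range, and the other 4 MMP9 mice lay below every vehicle mouse. The means were 144 ± 33.6 and 95.7 ± 35.7 CPM (SD, n = 5). The log2 fold change was -0.58 (SE 0.24), with a 95% interval from -1.11 to -0.06. The unadjusted p was 0.0314 and the edgeR adjusted p 0.981. Without MMP9 replicate 4 the value was -0.48, with an interval from -1.02 to 0.05. Without MMP9 replicate 2 it was -0.83 (edgeR unadjusted p = 0.00122, adjusted p = 0.935).

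**Figure D2:**
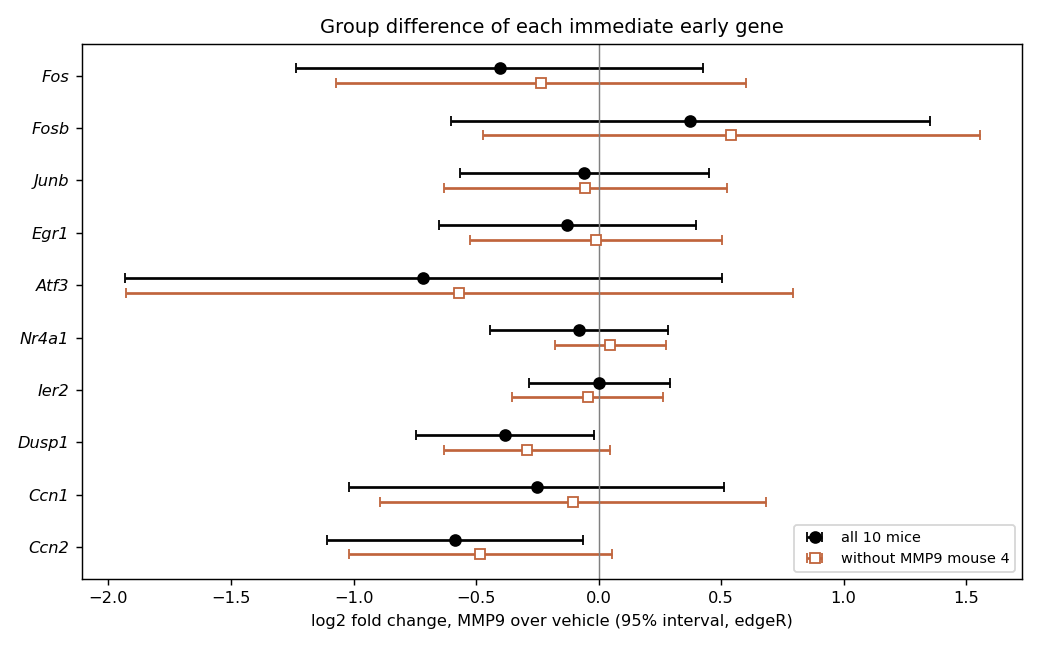
Log2 fold change of each member, MMP9 over vehicle (horizontal axis), with the 95% interval from edgeR, for all 10 mice (filled circles) and without MMP9 replicate 4 (open squares). Only the intervals of Dusp1 and Ccn2 leave out 0 with all 10 mice, before adjustment over genes, and neither does without that library.

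At an unadjusted p under 0.05 there were thus 2 of 10 members, both lower in MMP9, where 3.19% of all tested genes had such a p, 1.12% on the lower side. No member had one without vehicle replicate 5, without MMP9 replicate 3 or without MMP9 replicate 4. With any other single mouse left out there were 1 or 2. Without both libraries low in hair follicle markers there were 3. These were Atf3, Dusp1 and Ccn2 (edgeR unadjusted p = 0.0316, 0.0383 and 0.0406, adjusted p = 0.951 for each).

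Levels of different genes were compared per transcript length, in the deposited TPM. Junb was the most abundant member, with 201 ± 65.3 TPM after vehicle and 189 ± 68.8 TPM after MMP9 (SD, n = 5), and it exceeded Dusp1, the next gene, in 10 of 10 libraries. Dusp1 had 109 ± 21.8 and 82.7 ± 25.1 TPM and exceeded Ccn2 in 8 of 10. Ccn2, Ier2, Atf3, Egr1 and Ccn1 followed, with means over all libraries of 83.8, 72.1, 68.3, 66.6 and 63.0 TPM. Their order was not stable: Ccn2 exceeded Ier2 in 5 of 10 libraries, Ier2 exceeded Atf3 in 7, Atf3 exceeded Egr1 in 3, and Egr1 exceeded Ccn1 in 5. Ccn1 exceeded Fos in 10 of 10. Fos, at 33.9 ± 13.7 and 25.9 ± 15.2 TPM, exceeded Nr4a1 in 6 of 10. Fosb was the lowest, at 2.79 ± 1.53 and 3.63 ± 2.20 TPM, and was below Nr4a1 in every library. TPM divides a fixed total among genes. In TPM, MMP9 replicate 4 was the lowest of the 10 libraries for 10 of 10 members, and in CPM for 5 of 10, Fos, Egr1, Dusp1, Nr4a1 and Ccn2. The share of all tested genes that were lowest in that library was not computed. These counts therefore describe the library and cannot be read as a trait of the members.

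How far did the members vary between mice of the same group? The within-group SD of log2 CPM, averaged over both groups as variances, had a median of 0.24 over all tested genes. Atf3 had 1.01, and only 2.30% of tested genes had a larger SD. Fosb had 0.81, Fos 0.71 and Ccn1 0.65, with 3.58%, 5.04% and 6.35% of tested genes above them. Egr1, Ccn2 and Junb were intermediate, at 0.44, 0.41 and 0.40. Nr4a1 at 0.30 and Dusp1 at 0.28 were little above the median, and Ier2 at 0.22 was below it. From the lowest to the highest mouse, Fosb spanned a 4.14-fold range, Fos a 3.86-fold range and Ccn1 a 3.62-fold range, and Ier2 a 1.53-fold range. Without MMP9 replicate 4 the median over all tested genes was 0.19, Atf3, Fosb, Fos and Ccn1 had 0.99, 0.80, 0.65 and 0.61, and Nr4a1, at 0.16, was below the median while Ier2, at 0.22, was above it.

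**Figure D3:**
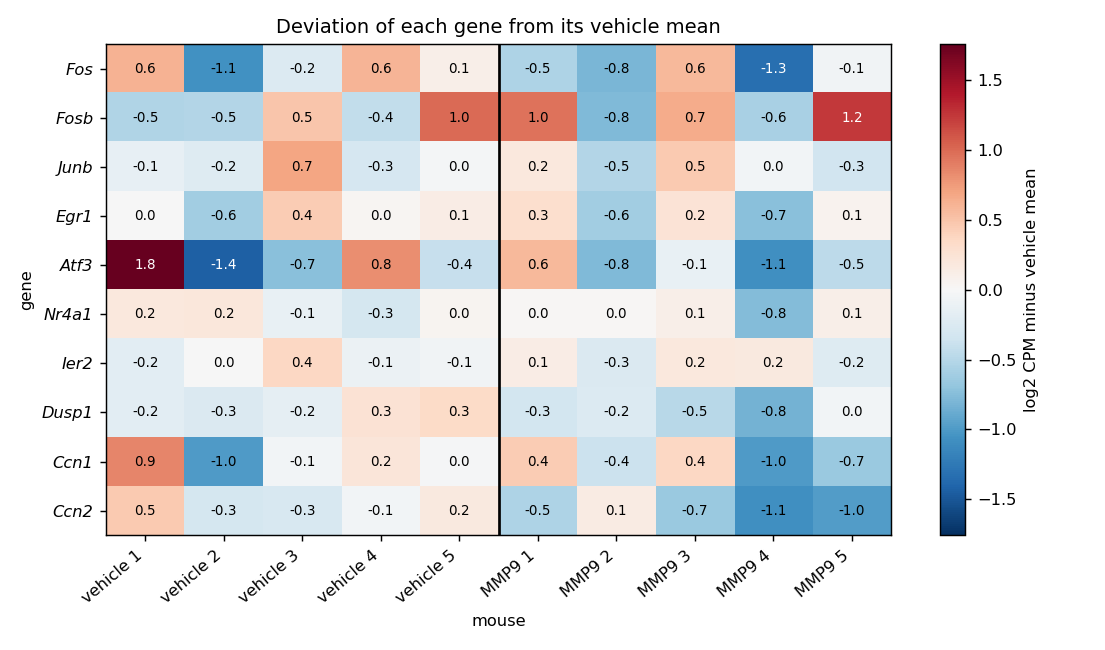
Log2 CPM of each member (rows) in each mouse (columns) minus the gene's mean over the vehicle mice, from blue (below) through white to red (above). Atf3 ranges from -1.4 to 1.8 within the vehicle group, and MMP9 replicate 4 is below the vehicle mean for all members except Ier2.

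The members did not move as one block. Of the 45 pairs, 35 had a positive Pearson r of log2 CPM over the 10 mice, 10 a negative one, and the median r was 0.32. These were 26 positive, 19 negative and a median of 0.09 without MMP9 replicate 4. Of single pairs, Dusp1 and Nr4a1 went from 0.39 to -0.48 and Fos and Nr4a1 from 0.37 to -0.25. Pairs of genes outside the list were not computed. How common such values of r are among other genes of these libraries is therefore not known. After Benjamini-Hochberg adjustment over the 45 pairs, 2 passed by Pearson's r and 3 by Spearman's rho (two-sided permutation tests, 100000 resamples). Junb and Ier2 formed one pair, with r = 0.90 (permutation p = 0.00026, adjusted 0.0117) and rho = 0.89 (permutation p = 0.00108, adjusted 0.0243). Leaving out the 2 mice farthest from the median of Junb gave r = 0.79, and centring within groups gave 0.90. Both genes were highest in vehicle replicate 3, and without that mouse the adjusted permutation p was 0.0868. In the RefSeq annotation both genes lie on chromosome 8, with 17 protein-coding genes between them.

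Atf3 and Ccn1 formed the other pair, with r = 0.88 (permutation p = 0.00072, adjusted 0.0162) and rho = 0.93 (permutation p = 0.00036, adjusted 0.0162). Leaving out the 2 mice farthest from the median of Atf3 gave r = 0.86, and centring within groups gave 0.87. The pair was highest in vehicle replicate 1 and lowest in vehicle replicate 2, and the adjusted permutation p was 0.133 without the first and 0.0763 without the second. Their promoters shown above both hold TGACGT, as do those of Fos and Dusp1. Dusp1 had r = 0.29 with Atf3 and 0.29 with Ccn1. Whether the motif goes with co-variation was not tested. Fos and Atf3 passed by rank, with rho = 0.87 (permutation p = 0.00206, adjusted 0.0309), but not by r = 0.73 (permutation p = 0.0151, adjusted 0.17). Leaving out the 2 mice farthest from the median of Fos gave r = 0.58. Fosb and Egr1 had r = 0.73 and Fos and Ccn1 r = 0.78, and neither passed (adjusted permutation p = 0.201 and 0.151). Dusp1 and Ier2 had r = -0.44, and this did not pass either (adjusted permutation p = 0.572).

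**Figure D4:**
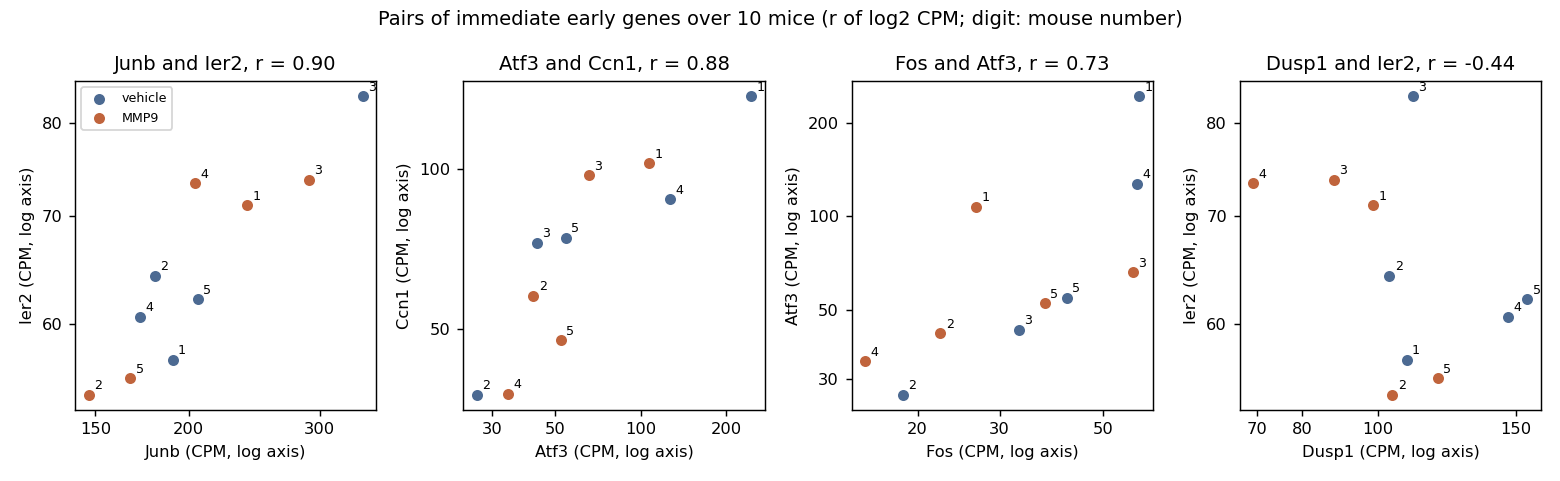
Levels of 4 pairs of members in each mouse, in CPM on logarithmic axes, vehicle in blue and MMP9 in orange with the mouse number beside each point, and Pearson's r of log2 CPM above. Junb and Ier2 (r = 0.90) and Atf3 and Ccn1 (r = 0.88) rise together across both groups, while Fos with Atf3 (r = 0.73) and Dusp1 with Ier2 (r = -0.44) did not pass by Pearson's r.

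On log2(TPM + 1), 8 pairs passed by Pearson's r, and 1 passed on that scale when MMP9 replicate 4 was left out, a setting chosen after seeing the data. On log2 CPM without that library 2 pairs passed, Junb with Ier2 and Atf3 with Ccn1 (adjusted permutation p = 0.0072 and 0.0454). Without vehicle replicate 2 and MMP9 replicate 1 only Junb with Ier2 passed (adjusted permutation p = 0.0342, against 0.105 for Atf3 with Ccn1). Vehicle replicate 1, where Atf3, Ccn1 and Ccn2 were highest, also had the highest median deviation of heat shock genes, 0.50 on the log2 scale against -0.35 to 0.03 in the other 9 libraries. Hspa1b, an inducible HSP70 gene, stood at 617 CPM there and at 120.0 to 265 CPM elsewhere. The median deviation of skeletal muscle markers was 0.46 in that mouse, within the range of -0.52 to 0.52 over the other 9. The part of heat shock, tissue composition and transcript length in the members' levels was not tested.

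The wider set of immediate early genes and the lists after it stand beside 0% of all tested genes called and 46.3% below 0. The share below 0 was 52.4% without MMP9 replicate 4. Of the wider set, 37 of 38 listed genes were tested and 0 were called in either direction. Their log2 fold change was above 0 for 11 and below 0 for 26, and the median was -0.10. Without MMP9 replicate 4 these were 15 above, 22 below and a median of -0.03. The 4 with the smallest p were Gem, Plk3, Jund and Zfp36. Gem, a small GTPase, had 27.7 ± 4.76 CPM after vehicle and 34.4 ± 5.10 CPM after MMP9 (SD, n = 5), and a log2 fold change of 0.31. It had the only unadjusted p under 0.05 of the list, 0.0443 (edgeR adjusted p = 0.981). Plk3, a stress kinase, had 56.2 ± 11.9 and 46.1 ± 7.10 CPM, and Jund, the most constantly expressed Jun protein, 263 ± 16.9 and 232 ± 23.9 CPM. Zfp36, whose protein destabilises mRNAs with AU-rich elements, had a log2 fold change of -0.23 (SE 0.14).

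Upstream of the members, the list of kinases and of SRF and CREB factors had 0 of 22 called, with 4 above 0, 18 below and a median log2 fold change of -0.05. Without MMP9 replicate 4 these were 7 above, 15 below and -0.03. Srf itself had a log2 fold change of -0.10 (SE 0.09), the p38 kinase gene Mapk14 one of -0.15 (SE 0.09) and the ERK kinase gene Map2k1 one of 0.12 (SE 0.10). Cytoskeletal genes that SRF regulates with its MRTF coactivators had 0 of 15 called, with 9 above 0, 6 below and a median of 0.03, and 8 above, 7 below and 0.05 without that library. Among them the smooth muscle genes Myl9 and Tagln had 0.25 and 0.27 (SE 0.11 and 0.13). For Myl9 the edgeR unadjusted p was 0.0408 and the adjusted p 0.981. YAP, TAZ, TEAD genes and their targets had 0 of 22 called, with 6 above 0, 16 below and a median of -0.06. There were 10 above and 12 below, and a median of -0.01, without MMP9 replicate 4. In that list Ankrd1, a YAP target that muscle also expresses, had 142 ± 116 CPM after vehicle and 88.2 ± 34.6 CPM after MMP9, and a log2 fold change of -0.69 (SE 0.49). Ccn4, a paralog of Ccn1 and Ccn2, went the other way in its mean, with a log2 fold change of 0.51 (SE 0.32).

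Glucocorticoid-induced genes, a group to which Dusp1 also belongs, had 0 of 14 called, with 3 above 0, 11 below and a median log2 fold change of -0.32, or -0.27 with the same counts without MMP9 replicate 4. Zbtb16, a zinc finger factor strongly induced by glucocorticoids, stood at 51.8, 27.7, 20.7, 89.9 and 52.6 CPM in vehicle and at 23.7, 22.7, 20.1, 21.1 and 24.5 CPM in MMP9. Its log2 fold change was -1.11 (SE 0.33), with an unadjusted p of 0.00563 and an edgeR adjusted p of 0.981. Of the vehicle mice, 4 lay above every MMP9 mouse, and vehicle replicate 3 lay within the MMP9 range. Cdkn1a had a log2 fold change of -0.21 (SE 0.10), with an edgeR unadjusted p of 0.0469 and an adjusted p of 0.981. Heat shock genes had 0 of 14 called, with 2 above 0, 12 below and a median of -0.13, or -0.18 with the same counts without that library, and Hspa1b had a log2 fold change of -0.60 (SE 0.40).

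**Figure D5:**
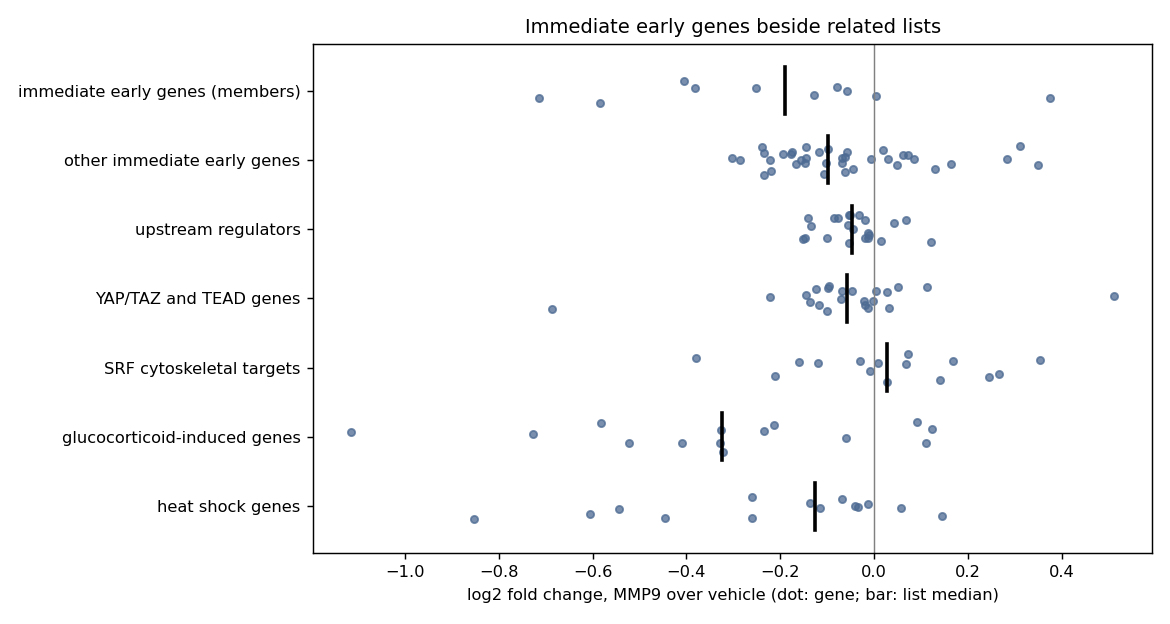
Log2 fold change, MMP9 over vehicle (horizontal axis), of the 10 members and of the tested genes of 6 related lists, 1 dot per gene, with a bar at each list's median. The medians lie between -0.32 for glucocorticoid-induced genes and 0.03 for SRF cytoskeletal targets. No gene shown passed the test, where 0% of all tested genes did.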

How the data were processed

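Polyadenylated RNA of 10 cheeks was sequenced as single-end reads of 50 bases on a DNBSeq instrument, per the labels' protocols. The submitters' processing notes name HISAT and build GRCm39. Nothing in the sources used here names the quantifier, annotation, filters or strand handling, so reads of overlapping or antisense genes cannot be told apart. The table gives, per the file headers, an estimated count of reads per gene and library, made by the authors before deposit and not normalised (60.8% of values not whole). The deposited TPM values, per the file headers, are scaled by transcript length and by library total. The authors' FPKM columns and group means were not used.

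Counts were rounded and fitted in edgeR 4.0.16 (R 4.3.3) with TMM factors, filterByExpr and the quasi-likelihood F test on treatment. The filter kept 15250 genes with 99.95% of counts. Benjamini-Hochberg adjustment ran over all of them. Standard errors derive from F. Log2 CPM used a prior count of 2. The fit was tested on simulated data. Alternatives used limma 3.58.1, DESeq2 1.42.0, other scaling and filters, a replicate block, and each mouse left out.

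The members and 15 other gene lists (227 entries in all, 226 in the table) were chosen with earlier results of these data known. Named were all members, up to 4 genes of smallest p per related list (not all are printed), and the 10 non-members whose log2 CPM correlated best with the members' mean deviation. No pair of libraries was a duplicate, with a chi-square per gene of at least 18.5.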

Additional observations from a re-analysis of the deposited data

Results flagged for a closer look

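Within groups of 5 mice, 24 sets of values were examined for a single mouse far from the other 4. The rule was a gap between that mouse and its nearest neighbour of more than 0.71 of the whole range. Chance gives this in about 1 of 20 sets of independent normal values. The members' CPM are not independent of each other and are not known to be normal. In vehicle replicate 3, Junb was at 342 CPM where the other vehicle mice had 172 to 206 CPM, and Ier2 was at 83.1 CPM where they had 57.0 to 64.3 CPM. In MMP9 replicate 4, Nr4a1 was at 21.0 CPM where the other MMP9 mice had 36.0 to 38.4 CPM. The same library had 13.2% of its counts in ribosomal protein genes, where the other MMP9 mice had 6.74% to 7.32%. Its genes with the longest transcripts had a median deviation of -0.39 on the log2 scale, where the other MMP9 mice had -0.01 to 0.10. Both measures are those by which this library was set apart above, so they are no separate evidence.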

How the results depend on the processing

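None of the 10 members was called under any of the 21 alternatives, and their median log2 fold change stayed below 0, between -0.34 and -0.08 with each mouse left out in turn and at -0.41 without vehicle 2 and MMP9 1 together. Fos, Egr1, Atf3, Dusp1 and Ccn2 stayed below 0 and Fosb above 0 under all 21. DESeq2 called 1 gene of 18994, Pnliprp2, and had 620 at an unadjusted p under 0.05, against 0 and 487 in edgeR and 0 and 462 in limma-voom. Ier2 changed sign under 14 alternatives: -0.0045 with RLE factors, -0.0056 with no filter, -0.0069 with DESeq2, -0.060 and -0.061 on log2(TPM + 1) and log2(TPM + 0.1), -0.00018 without muscle, hair, fat and blood markers, -0.035 without vehicle 2 and MMP9 1, and between -0.047 and 0.10 with a mouse left out. With a mouse left out, Fos lay between -0.73 and -0.24, Fosb between 0.11 and 0.70, Egr1 between -0.25 and -0.0051, Atf3 between -1.03 and -0.06, Dusp1 between -0.47 and -0.29, Ccn2 between -0.83 and -0.45, Junb between -0.21 and 0.16, Nr4a1 between -0.16 and 0.048 and Ccn1 between -0.44 and 0.012. Member pairs that passed numbered 2 on log2 CPM, 8 on log2(TPM + 1), 1 on that scale with MMP9 mouse 4 left out, 1 on log2 CPM without vehicle 2 and MMP9 1, and 1 to 4 with a mouse left out. The cause was not tested. Mouse numbers name different animals, so same-numbered mice were not taken as pairs. They correlated between -0.24 and 0.46 in their deviations. For vehicle mice 3 and 5 the closest MMP9 mouse had the same number, and for vehicle mice 1, 2 and 4 it did not. Whether equal numbers share a batch was not tested. With the replicate block 0 genes were called, and the members' median was -0.20. Atf3, at -0.71 in edgeR without the block, was at -0.36 in edgeR with it and at -0.37 in limma-voom without one. The 95% interval of the log2 fold change of Fos ran from -1.23 to 0.42.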

Other observations

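The 10 genes outside the list whose log2 CPM followed the members' mean deviation most closely over the 10 mice were Akap11, Rock2, Chsy3, Pvr, Cald1, Sema6d, Igsf9b, Dhx9, Spag9 and Slk, with Pearson's r between 0.92 and 0.96, given as a description of these libraries. Rock2, a kinase of the actomyosin cytoskeleton, had r = 0.95, and 0.91 without MMP9 replicate 4. Pvr, a nectin-like adhesion receptor, had 0.94 with and without it. Of the 10 genes, 6 were in the quintile with the longest transcripts, where no member was. In the quintile with the shortest transcripts there was 1 member, Ier2. The members themselves ranged from r = 0.01 for Ier2 to 0.91 for Ccn1 with that mean deviation, to which each of them contributes.

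Ankrd1 was a gene of the related lists whose order over mice resembled that of Atf3 on inspection, a choice made after its values were seen. Not every gene of those lists was inspected. It stood at 333, 41.2, 83.4, 167 and 85.3 CPM in vehicle and at 136, 66.0, 112, 52.8 and 74.6 CPM in MMP9. The 4 highest mice of both genes were vehicle replicates 1 and 4 and MMP9 replicates 1 and 3. The 3 lowest were vehicle replicate 2 and MMP9 replicates 2 and 4. Bag3, a heat shock gene, had the same 4 highest and the same 3 lowest mice. The heat shock gene Cryab, abundant in muscle, was at 1160 and 1027 CPM in vehicle replicates 1 and 4 and at 354 to 580 CPM in the other 8 mice.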
